A study of Mus musculus with 3 samples.

Results

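The 41 genes described here are autosomal genes of the mouse that are known to be imprinted, listed by name, out of 27179 genes counted in cultured pro-B cells with and without the transcription factor Pax5. All 41 names matched a counted gene. The list uses no threshold on expression, but it was drawn up with results of the Pax5-/- against wild-type contrast known, so the members' values in that contrast are given as a description and their p-values are not printed. There were 2 Pax5-/- samples, both labelled male, and 1 wild-type (WT) sample, labelled female. All 3 were C57BL/6 bone marrow B220+ cells (B220 is a CD45 isoform found on the B lineage) grown on OP9 stromal feeder cells. For the Pax5-/- samples the labels state that IgM+ cells were removed at day 7, and for WT they name neither a day nor a removal step. Age and the exons that the Pax5 allele lacks are not stated in the labels. Genotype, sex and the IgM step cannot be told apart in this design.

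Imprinted genes are transcribed mainly from the copy inherited from a single parent, under the control of DNA methylation set in the egg or sperm. Most lie in clusters that share an imprinting control region and often hold a long noncoding RNA beside protein-coding genes. Paternally expressed members such as Igf2 are best known as promoters of fetal growth and maternally expressed members such as Cdkn1c, Grb10 and Igf2r as brakes on it, and in bone marrow several are known from haematopoietic stem cells. The libraries count transcripts of both parental copies together, so neither loss nor gain of imprinting is measured.

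The libraries held 6487846 and 6697879 counts in Pax5-/- samples 1 and 2 and 6530057 in WT. Levels below are TMM-scaled CPM, counts scaled to a common library total. A count of 0 allows up to 0.463 CPM in Pax5-/- sample 1, 0.441 in sample 2 and 0.468 in WT. A gene was tested if it had about 10 counts in at least 1 library and also reached a minimum total over all libraries together. It was called if its Benjamini-Hochberg adjusted p, over all 11783 genes tested by edgeR's quasi-likelihood test, was under 0.05. Only the 2 Pax5-/- samples give an estimate of spread, and the single WT library was taken to vary as much. Pax5 itself had 64.4 and 80.9 CPM in Pax5-/- and 249.7 CPM in WT, and counts over the whole gene do not tell whether exons deleted from the allele were read. All 14 pro-B cell markers examined were above 0 in every library, among them Rag1 with 3737 and 4621 counts in Pax5-/- and 2237 in WT.

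The result that stands out by size is the Igf2-H19 pair, whose transcripts also carry microRNAs. The hairpin of miR-483 lies within the Igf2 span and that of miR-675 within H19, both on the minus strand of chromosome 7 (GRCm38.p6, RefSeq). Their mature sequences are shown because they belong to the 2 most abundant of the members that were called higher, with the seed (bases 2 to 8) in capitals. The 4 arms have 4 different seeds.
mmu-miR-483-5p, chr7:142654968-142654989: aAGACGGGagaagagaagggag
mmu-miR-483-3p, chr7:142654932-142654952: uCACUCCUccccucccgucuu
mmu-miR-675-5p, chr7:142577112-142577133: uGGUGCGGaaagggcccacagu
mmu-miR-675-3p, chr7:142577078-142577099: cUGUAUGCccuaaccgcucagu
Mature microRNAs were not measured in these libraries, and the 2 hairpin genes had 0 counts in all 3.

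Igf2 and H19 were abundant in both Pax5-/- samples and almost absent from WT. Igf2 encodes a fetal growth factor of the insulin family and is expressed from the paternal copy (Entrez 16002; chromosome 7, 142650768 to 142666816, mm10). Its counts were 2930 and 5095 in Pax5-/- samples 1 and 2, against 3 in WT, or 452 and 748 CPM against 0.468 CPM. The pooled ratio was 1291 (exact 95% counting interval 442 to 6260.1), and counting intervals cover counting error only. The fitted log2 fold change ranked 12 among the 11783 genes tested. H19, the maternally expressed noncoding RNA of the same cluster (Entrez 14955; chromosome 7, 142575530 to 142578146), had 1974 and 4564 counts in Pax5-/- and 13 in WT. That is 305 and 670 CPM in Pax5-/- against 2.03 CPM in WT, a log2 fold change of 7.90 (SE 0.80). Every Pax5-/- value lay far above its WT value, and Pax5-/- sample 2 was the higher of the 2 for both genes. The call of both genes was lost with limma-voom and that of H19 also with robust dispersion estimation, at nearly unchanged fold changes.

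Per kilobase of annotated length, the 2 genes stood at similar levels in Pax5-/- sample 1 and less so in sample 2. H19 was at 117 and Igf2 at 107 CPM per kilobase in sample 1, an H19 to Igf2 ratio of 1.09 (95% counting interval 1.03 to 1.16). In sample 2 they were at 256 and 177 CPM per kilobase, a ratio of 1.45 (1.39 to 1.51). On this scale H19 ranked 671 and 213 and Igf2 757 and 368 among the 27179 genes in Pax5-/- samples 1 and 2. In WT they ranked 11077 and 13279.

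Igf2r, the receptor member of the list, had lower values in both Pax5-/- samples. It is maternally expressed and carries IGF2 to lysosomes for degradation (Entrez 16004; chromosome 17, 12682406 to 12769706). It had 86 and 181 counts in Pax5-/- and 311 in WT. The CPM were 13.3 and 26.6 in Pax5-/- against 48.5 in WT, a log2 fold change of -1.28 (SE 0.42) that was not called. Airn, the paternal noncoding RNA that runs antisense through Igf2r and silences it in mouse embryos, had 0 and 0 counts in Pax5-/- and 1 in WT.

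**Figure D1:**
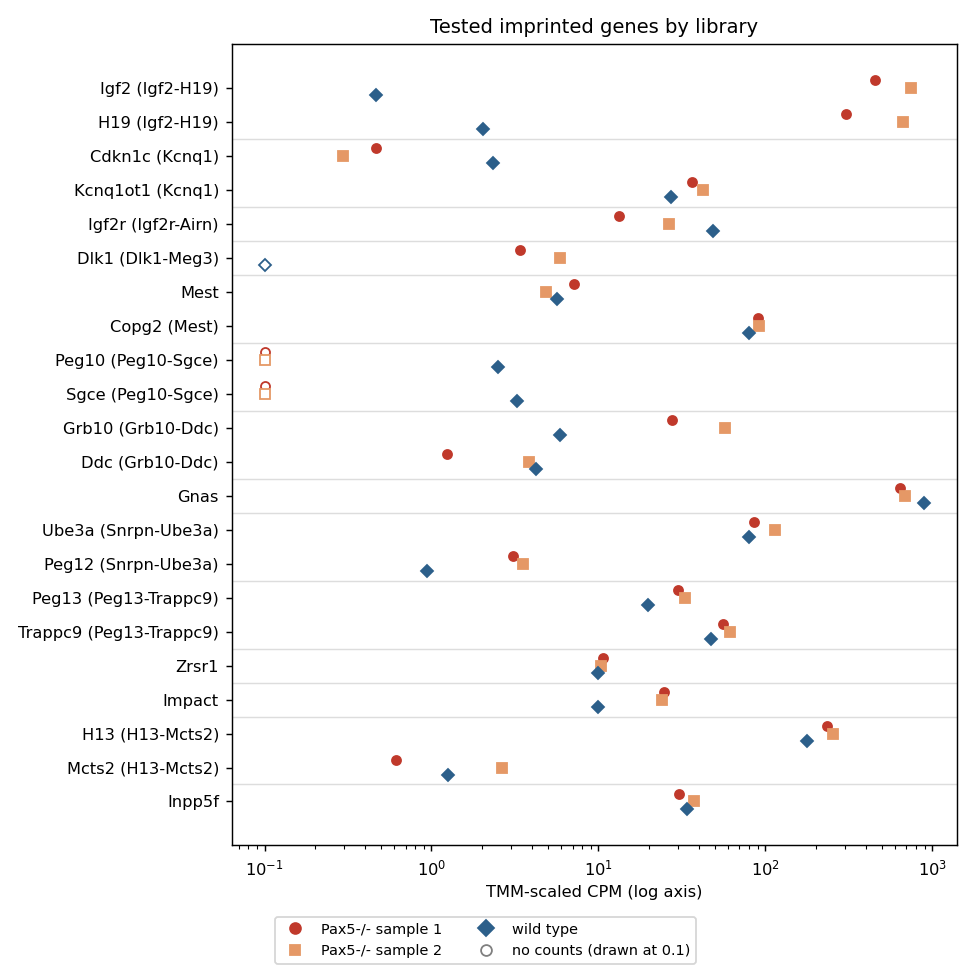
TMM-scaled CPM (log axis) of the 22 tested imprinted genes in the 2 Pax5-/- samples (red circle, orange square) and WT (blue diamond), grouped by cluster, with open symbols drawn at 0.1 for a library with no counts. Igf2 stands at 452 and 748 CPM in Pax5-/- against 0.468 CPM in WT and H19 at 305 and 670 against 2.03, while Copg2, Zrsr1 and Inpp5f lie close together in all 3 libraries.

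Of the 41 members, 22 were tested, 12 had 0 counts in all 3 libraries and the other 7 had at most 8 counts in any library. Over the 22, 5 were called higher in Pax5-/- (Igf2, H19, Dlk1, Grb10 and Impact), beside 9.53% of all tested genes called higher. Only Sgce was called lower, beside 8.55% of all tested genes called lower. Nothing is read from these shares, since the contrast was known when the members were listed. The median fitted log2 fold change was 0.32 over the 22 and 0.01 over all genes tested. Both Pax5-/- samples lay above WT for 13 of the 22, both below for 6, and on either side of it for 3. The 3 were Mest, Mcts2 and Inpp5f. Over all 11783 genes tested, both lay above WT for 4985, both below for 5052, and on either side for 1746.

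Grouped by parental expression, 22 members are paternally expressed, of which 11 were tested, 3 called higher (Igf2, Dlk1 and Impact) and 1 lower (Sgce). Of 11 maternally expressed members, 3 were tested, with H19 called higher and Igf2r and Cdkn1c at negative values that were not called. The other 8 are imprinted only in some isoforms or tissues, and all 8 were tested, with Grb10 called higher. No member of these 8 had 0 counts in every library, against 5 of the 22 paternally and 7 of the 11 maternally expressed genes. Over all 41 members the share at 0 in every library was 29.3%, beside 40.6% of all 27179 genes. The groups are small, and the difference between them was not tested.

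In the Grb10-Ddc cluster of chromosome 11, Grb10 was higher in both Pax5-/- samples. Grb10 encodes an adaptor that inhibits signalling from the insulin and IGF1 receptors, and it is maternally expressed in most tissues but paternally expressed in neurons. It had 179 and 388 counts in Pax5-/- and 38 in WT, or 27.6 and 57.0 CPM in Pax5-/- against 5.93 CPM in WT (log2 fold change 2.83, SE 0.58). Both Pax5-/- values lay above WT, with sample 2 again the higher. Its call was lost with library size alone, with limma-voom and with robust dispersion estimation. Ddc, the neighbouring aromatic amino acid decarboxylase gene, had 8 and 26 counts in Pax5-/- and 27 in WT and was not called.

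Igf2 and Grb10 each have several annotated starts, and gene-level counts do not say which was used. The 250 bases before 2 starts of each gene are shown to let the starts be compared (GRCm38.p6, RefSeq, minus strand). These windows overlap no exon of the GENCODE annotation. The first Grb10 window still takes in the outermost bases of the Grb10 span in RefSeq, which ends at 12037428. CG dinucleotides, the sites of DNA methylation, are in capitals. CG reads the same on both strands.
Igf2, first start, chr7:142666817-142667066: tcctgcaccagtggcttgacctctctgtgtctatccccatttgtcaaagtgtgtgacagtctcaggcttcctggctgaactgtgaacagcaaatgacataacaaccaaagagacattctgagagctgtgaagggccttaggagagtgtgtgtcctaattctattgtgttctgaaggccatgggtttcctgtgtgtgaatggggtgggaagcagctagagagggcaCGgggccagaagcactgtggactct
Igf2, last start, chr7:142657497-142657746: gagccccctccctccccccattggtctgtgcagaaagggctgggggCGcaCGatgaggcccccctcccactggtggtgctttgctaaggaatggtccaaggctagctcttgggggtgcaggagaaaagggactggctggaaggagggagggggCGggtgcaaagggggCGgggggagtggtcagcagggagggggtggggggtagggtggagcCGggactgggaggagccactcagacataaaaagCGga
Grb10, first start, chr11:12037421-12037670: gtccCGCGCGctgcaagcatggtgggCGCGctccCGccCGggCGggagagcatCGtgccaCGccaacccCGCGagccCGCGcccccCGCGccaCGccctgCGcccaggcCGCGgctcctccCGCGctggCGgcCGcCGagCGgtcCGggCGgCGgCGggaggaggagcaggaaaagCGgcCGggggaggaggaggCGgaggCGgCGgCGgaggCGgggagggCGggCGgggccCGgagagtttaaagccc
Grb10, second start, chr11:12027972-12028221: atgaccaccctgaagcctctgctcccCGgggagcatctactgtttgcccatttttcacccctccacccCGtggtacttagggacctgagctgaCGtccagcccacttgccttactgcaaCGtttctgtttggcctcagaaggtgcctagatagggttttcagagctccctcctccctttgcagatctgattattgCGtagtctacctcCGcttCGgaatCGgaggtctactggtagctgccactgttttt
These windows hold 1 and 6 CG for Igf2 and 40 and 8 for Grb10, beside a median of 6 over 32851 windows of the same length, of which 92.1% hold at least 1. The window before the first Grb10 start is among the 1.31% with at least as many. Of the 41 members, 32 had such windows in the RefSeq table, 47 in all. The motif TGCCGC, read on both strands and known as the methylated sequence that the imprint protector ZFP57 binds, was found in 8 of these 47 windows and in 8.68% of all 32851. Of the 8, 2 are Mest windows that overlap almost wholly, so the same matches are counted in both. Methylation and ZFP57 binding were not measured here.

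In the Dlk1-Meg3 cluster of chromosome 12 only the paternally expressed Dlk1 was detected above single counts. Dlk1 encodes a membrane protein related to Notch ligands that holds precursor cells undifferentiated. It had 22 and 40 counts in Pax5-/- and 0 in WT, and was at least 9.97-fold higher with 3 counts taken as the WT limit. Meg3, the maternal noncoding RNA of the cluster, had 0 and 0 counts in Pax5-/- and 1 in WT. Rian, Mirg and Rtl1 had 0 in all 3 libraries.

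The Peg10-Sgce cluster of chromosome 6 showed the reverse order. Peg10, a gene derived from a retrotransposon, had 0 and 0 counts in Pax5-/- and 16 in WT, at least 11.1-fold lower in Pax5-/-. Sgce, which encodes epsilon-sarcoglycan, had 0 and 0 counts in Pax5-/- and 21 in WT, at least 14.5-fold lower. Both genes were undetected in both Pax5-/- samples, and their WT levels were low, at 2.50 and 3.28 CPM. The call of Sgce was lost with library size alone, and Peg10, which was not called, passed under 5 of the other settings.

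Impact, a paternally expressed inhibitor of the stress kinase GCN2, was higher in Pax5-/- with little spread. It had 161 and 163 counts in Pax5-/- and 64 in WT, or 24.8 and 23.9 CPM in Pax5-/- against 9.98 CPM in WT (log2 fold change 1.29, SE 0.21). The call did not hold under an assumed biological coefficient of variation (the relative spread between samples) of 0.4. In the Kcnq1 cluster of chromosome 7, 4 of the 6 listed members had no counts. Neighbours outside the member list were expressed, among them Cd81 at 209 and 203 CPM in Pax5-/- and 207 CPM in WT. Tspan32 was at 87.0 and 76.5 CPM in Pax5-/- and 33.1 CPM in WT. The cluster's paternal noncoding RNA Kcnq1ot1, which silences neighbouring genes in cis, had 236 and 288 counts in Pax5-/- and 174 in WT (log2 fold change 0.54, SE 0.18, not called). Cdkn1c, the cyclin-dependent kinase inhibitor p57, had 3 and 2 counts in Pax5-/- and 15 in WT (log2 fold change -2.58, SE 0.71, not called). Kcnq1, Phlda2, Slc22a18 and Ascl2 had 0 in all 3 libraries.

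The remaining tested members differed little or were low. Gnas, which encodes the stimulatory G protein alpha subunit and imprinted variants of it, had 645 and 682 CPM in Pax5-/- and 898 CPM in WT (log2 fold change -0.44, SE 0.10, not called). H13, a signal peptide peptidase, had 235 and 254 CPM in Pax5-/- and 177 CPM in WT (log2 fold change 0.47, SE 0.13, not called). Gnas passed the threshold with RLE scaling, with no filter on low counts and with robust dispersion estimation. Peg12 had 20 and 24 counts in Pax5-/- and 6 in WT, and Peg13, a noncoding RNA inside Trappc9, had 193 and 226 counts in Pax5-/- and 127 in WT. Log2 fold changes of the other 8 tested members (Mest, Copg2, Ddc, Ube3a, Trappc9, Zrsr1, Mcts2 and Inpp5f) lay between -0.72 for Ddc and 0.39 for Mcts2. Copg2, a coat protein of transport vesicles, and the ubiquitin ligase gene Ube3a were among these, at 90.9 ± 1.29 and 100.2 ± 20.3 CPM (SD, n = 2) over the Pax5-/- samples, against 79.9 CPM in WT for each.

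Among members that were not tested, Mkrn3 had 7 and 8 counts in Pax5-/- and 1 in WT and Ndn, a growth suppressor of neurons, had 1 and 6 counts in Pax5-/- and 2 in WT. Peg3, Plagl1 and Nnat had at most 1 count in any library. Usp29, Zim1, Magel2, Zdbf2 and Snrpn were at 0. Snrpn overlaps Snurf in the annotation, which was also at 0, and reads that fall on both genes may have been left out of the counts, so this 0 is not read as absence. In all, 25 of the 41 members overlap another counted gene, and without a stated strand setting the reads of such pairs cannot be separated. Mcts2 and Zrsr1 are retrotransposed copies of the X-linked Mcts1 and Zrsr2, and reads shared with these are uncertain.

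Per kilobase, the order of levels among the members differed between the genotypes. In Pax5-/- H19 (186 ± 98.9 CPM per kilobase, SD, n = 2), Igf2 (142 ± 49.4) and Gnas (109 ± 4.32) led, and their ranges overlapped or lay next to each other. Copg2 (29.1 ± 0.41) and H13 (24.6 ± 1.35) followed. In WT Gnas led with 148 CPM per kilobase, ahead of Copg2 with 25.5 and H13 with 17.8, and H19 and Igf2 were at 0.775 and 0.110.

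The 2 Pax5-/- samples can be set against each other without WT. The members were listed with results of these same samples known, and the limit of 20 counts looks at Pax5-/- only. Igf2 and Dlk1, with 3 and 0 counts in WT, thus pass it through the group where they are high. All members come from the same 2 samples and are not replicates, so the counts of members are a description. Of 19 members with at least 20 counts over both, 11 were lower in sample 1 than in sample 2 beyond the exact 95% counting interval, 0 were higher, and 8 had intervals that include 1. Over all 11070 tested genes with as many counts, 1993 were lower in sample 1 (18.0%) and 1546 higher by the same measure. H19 had a sample 1 to sample 2 ratio of 0.454 (95% counting interval 0.431 to 0.479), Grb10 of 0.485 (0.404 to 0.580), Igf2r of 0.499 (0.382 to 0.649) and Igf2 of 0.604 (0.577 to 0.632). Only 2.66% of the 11070 genes differed between the samples by as much as H19 on the log2 CPM scale, 3.16% by as much as Grb10 and 6.71% by as much as Igf2. The widest gaps among the members were those of Mcts2 (0.233, 0.0575 to 0.709) and Ddc (0.323, 0.127 to 0.735), which had few counts, and Dlk1 stood at 0.578 (0.327 to 0.996). Impact (1.04, 0.830 to 1.30) and Copg2 (0.980, 0.874 to 1.10) had intervals that include 1. The intervals hold counting error alone and narrow with depth, so they do not measure the spread between cultures.

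**Figure D2:**
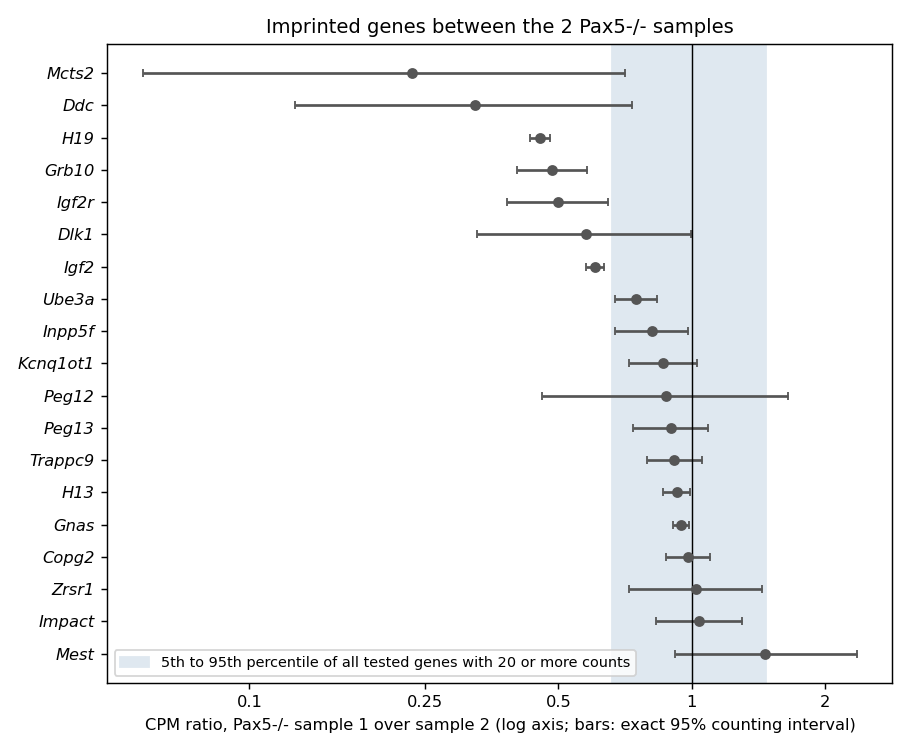
CPM ratio of Pax5-/- sample 1 over sample 2 (log axis) for the 19 imprinted genes with at least 20 counts over both, with exact 95% counting intervals and, shaded, the range from the 5th to the 95th percentile of all tested genes with as many counts. Mcts2 at 0.233, Ddc at 0.323, H19 at 0.454, Grb10 at 0.485, Igf2r at 0.499, Dlk1 at 0.578 and Igf2 at 0.604 lie to the left of the shaded range, and Impact and Copg2 lie near 1.

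Genes around Igf2 and H19 were taken by position, a choice made after their values were seen, so no p-value is given for them. The window of 250 kb to either side held 17 counted genes, with H19 and Igf2 themselves among them. Of these 17, 7 were tested, again with the pair included, and both Pax5-/- samples lay above WT in all 7. The same held for 4985 of all 11783 genes tested. Igf2, Igf2os and Prr33, with 3, 0 and 5 counts in WT, passed the count filter through Pax5-/- alone. The window was drawn around a pair known to be higher, so nothing is read from the count of 7. Igf2os, transcribed antisense to Igf2, had 40 and 45 counts in Pax5-/- and 0 in WT, at least 13.7-fold higher, with reads that cannot be separated from those of Igf2 where the genes overlap. On the other side of H19, Lsp1, a leukocyte actin-binding protein gene, had 1072 and 925 CPM in Pax5-/- and 157 CPM in WT (log2 fold change 2.67, SE 0.15). Tnni2, a fast-muscle troponin gene, had 55.3 and 46.3 CPM in Pax5-/- and 2.81 CPM in WT (log2 fold change 4.17, SE 0.25), and Ctsd, the lysosomal protease cathepsin D, had 263 and 307 CPM in Pax5-/- and 98.6 CPM in WT (log2 fold change 1.53, SE 0.16). Mrpl23, the gene nearest to H19 on that side with any count, had 5 and 4 counts in Pax5-/- and 4 in WT, and Ins2, which lies beyond Igf2, had 0 in all 3 libraries.

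**Figure D3:**
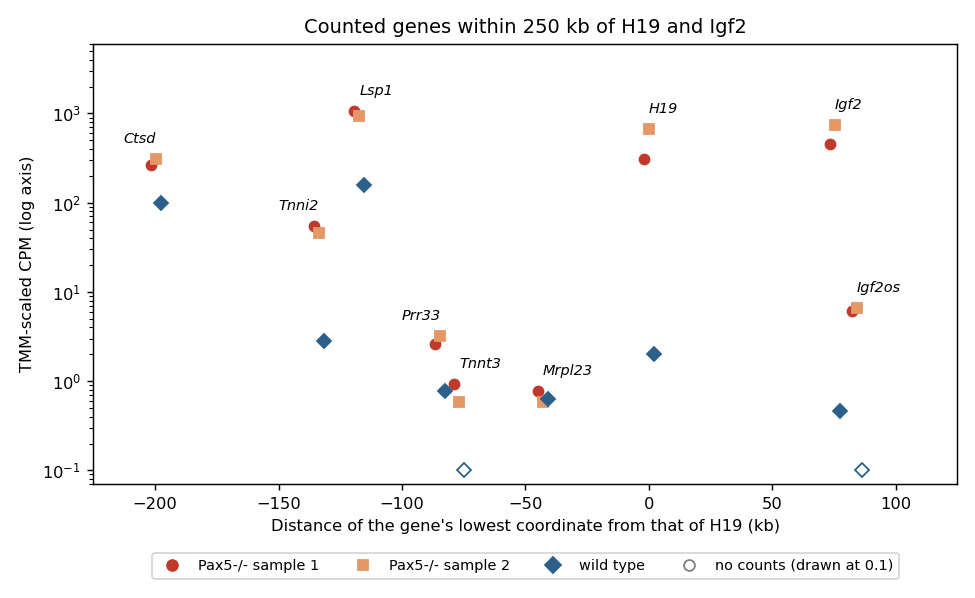
TMM-scaled CPM (log axis) of the 9 genes with any count within 250 kb of H19 and Igf2, against the distance of their lowest coordinate from that of H19 in kb, for the 2 Pax5-/- samples (red circle, orange square) and WT (blue diamond), with open symbols drawn at 0.1 for no counts and symbols of a gene set apart sideways for legibility. H19 and Igf2 have the largest gaps between Pax5-/- and WT, and Mrpl23, between Lsp1 and H19, has Pax5-/- values on either side of WT.

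Other imprinted genes and cluster neighbours moved in both directions. Of 60 such genes matched, 30 were tested, of which 4 rose, 6 fell and 20 were not called, beside 18.1% of all tested genes called in either direction. The median log2 fold change was -0.17. Near Peg10 and Sgce, Casd1, a sialic acid acetyltransferase gene, fell to 16.4 and 15.9 CPM in Pax5-/-, against 34.5 CPM in WT (log2 fold change -1.10, SE 0.17). Pon2 and Pon3, paraoxonase genes on the other side of Peg10, fell by 1.39 (SE 0.18) and 1.53 (SE 0.22) on the log2 scale. These 3 genes were called, but they were picked from the list after their values were seen, so no p-value is given for them. The call of Casd1 was lost with DESeq2, and those of all 3, and of Osbpl5 in the same list, with an assumed coefficient of variation of 0.4. Begain, near Dlk1 and also picked after its value was seen, had 0 and 0 counts in Pax5-/- and 17 in WT, at least 11.7-fold lower, and was not called. Among the called genes of the list, the largest fold changes were those of Bcl2l1, the survival gene next to H13 (log2 fold change -2.82, SE 0.21, adjusted p = 0.00572, edgeR), and Herc3, which surrounds the imprinted Nap1l5 (log2 fold change -2.58, SE 0.32, adjusted p = 0.0151, edgeR). Nap1l5 itself was at 0 in all 3 libraries. Gab1, a docking protein gene imprinted in mouse placenta, fell by 2.20 (SE 0.40, adjusted p = 0.0352, edgeR), a call lost with DESeq2. Osbpl5, a lipid-transfer gene at the edge of the Kcnq1 cluster that is imprinted in placenta, rose by 1.80 (SE 0.17, adjusted p = 0.00906, edgeR) and stood at 63.3 and 70.4 CPM in Pax5-/- against 19.2 CPM in WT. Between it and Kcnq1, Nap1l4 was at 236 and 223 CPM in Pax5-/- and 203 CPM in WT and was not called.

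Of 29 genes of the machinery that keeps imprints, 25 were tested, of which 1 rose, 2 fell and 22 were not called (median log2 fold change 0.06). The share called, 12.0%, was near the 18.1% of all genes tested. Dnmt3b, a de novo DNA methyltransferase, rose to 136 CPM in Pax5-/- (SD 19.8, n = 2), against 29.5 CPM in WT (log2 fold change 2.21, SE 0.21, adjusted p = 0.00906, edgeR). Kdm1b, a histone demethylase needed for imprints in the egg, fell by 1.26 (SE 0.15, adjusted p = 0.0144, edgeR), and Ezh2, the Polycomb methyltransferase, by 0.79 (SE 0.13, adjusted p = 0.0295, edgeR). All 3 calls were lost with an assumed coefficient of variation of 0.4. The maintenance methyltransferase Dnmt1 was at 711 and 670 CPM in Pax5-/- and 664 CPM in WT, and Ctcf, whose protein insulates Igf2 from enhancers on the maternal copy, at 439 and 408 CPM in Pax5-/- and 499 CPM in WT. Neither was called. Zfp57, Dppa3, Dnmt3l and Ctcfl had 0 counts in all 3 libraries.

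Genes of the IGF axis and growth partners of imprinted genes changed in both directions. Of 20 genes, 14 were tested, of which 5 rose, 3 fell and 6 were not called (median log2 fold change 0.08). Called genes were 57.1% of those tested in the list and 18.1% of all genes tested. Notch1, Notch2, Adcy7 and Cdkn1b, which are growth partners, were among the called genes. Like the neighbour and machinery lists, this list was drawn up with earlier results of these data known, so nothing is read from its share. Igf1r, the receptor that transmits IGF2 signals, had 38 and 83 counts in Pax5-/- and 268 in WT (log2 fold change -2.20, SE 0.43, adjusted p = 0.0394, edgeR), a call lost with library size alone. Irs2, an adaptor below this receptor, had 0 and 0 counts in Pax5-/- and 91 in WT and was at least 62.9-fold lower (adjusted p = 0.0138, edgeR). Both Pax5-/- samples lay below WT for both genes. Insr, the insulin receptor, and Irs1 were not called, at log2 fold changes of 0.01 (SE 0.19) and -0.16 (SE 0.48).

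Among proteins that bind IGF2 or its mRNA, Igfbp4, which holds IGFs away from their receptors, rose to 200 and 320 CPM in Pax5-/-, against 69.7 CPM in WT (log2 fold change 1.90, SE 0.34, adjusted p = 0.0342, edgeR). Igf2bp3, an mRNA-binding protein named for Igf2 and picked after its value was seen, was at 219 and 184 CPM in Pax5-/- and 59.0 CPM in WT. Its log2 fold change was 1.77 (SE 0.18), and it was called. Igf2bp1 was at 0 in all 3 libraries, Igf2bp2 had 1 and 3 counts in Pax5-/- and 11 in WT, and Igf1 had 1 and 0 counts in Pax5-/- and 4 in WT. Notch1, a receptor of the family whose ligands Dlk1 resembles, rose to 541 and 650.3 CPM in Pax5-/-, against 66.6 CPM in WT (log2 fold change 3.16, SE 0.18, edgeR adjusted p = 0.00413). Of the p57-related inhibitors, Cdkn1b, also picked after its value was seen, fell by 1.14 (SE 0.14) on the log2 scale and was called. Cdkn1a was not called, at 132 and 161 CPM in Pax5-/- and 146 CPM in WT. No p-value is given for the picked genes Igf2bp3 and Cdkn1b. The calls of Igfbp4, Igf2bp3 and Cdkn1b were lost with an assumed coefficient of variation of 0.4.

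**Figure D4:**
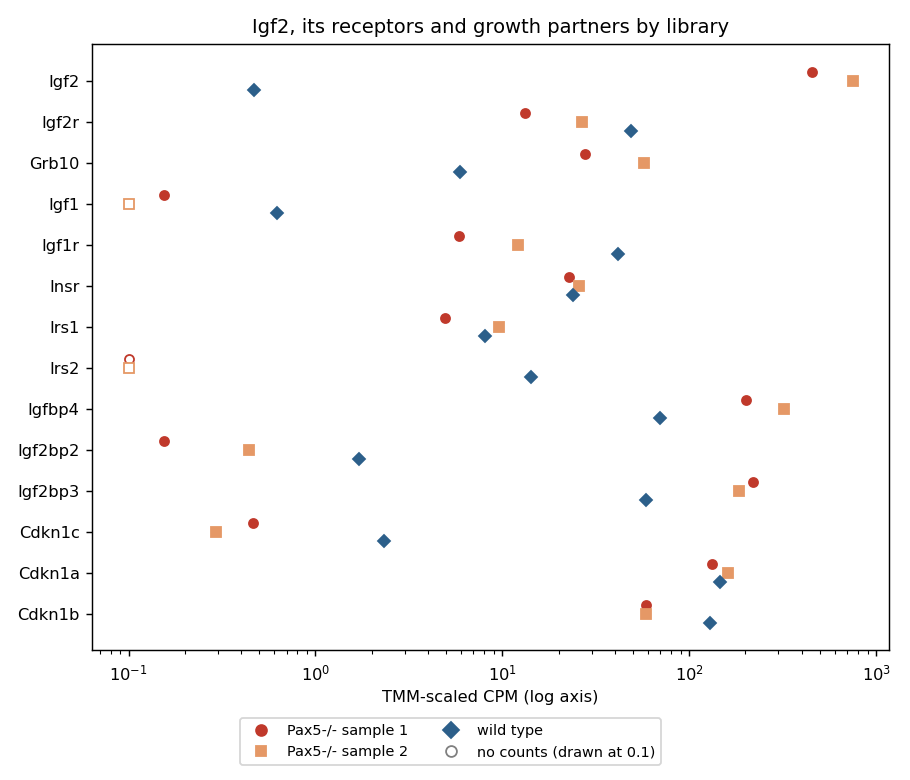
TMM-scaled CPM (log axis) of Igf2, its receptors, the inhibitor Grb10 and growth partners in the 2 Pax5-/- samples (red circle, orange square) and WT (blue diamond), with open symbols drawn at 0.1 for no counts. Igf2, Grb10, Igfbp4 and Igf2bp3 lie higher and Igf2r, Igf1r and Irs2 lower in both Pax5-/- samples than in WT, and Insr lies at nearly the same level in all 3.

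Markers of other cell types were measured beside these results, since a bulk library cannot tell fewer cells of a type from less RNA per cell. Of 20 stromal markers, which the OP9 feeders could bring, Lum was at 0 in all 3 libraries, and the list summed to 73.0 and 115 CPM in Pax5-/- and 57.7 CPM in WT. Thy1, which lymphoid cells also express, held most of this in Pax5-/-. Without Thy1, left out after its value was seen, the sums were 17.1 and 28.1 CPM in Pax5-/- and 39.0 CPM in WT, lower in both Pax5-/- samples than in WT. Col1a1, a defining collagen gene, had 12 and 6 counts in Pax5-/- and 23 in WT, and Fn1 had 11 and 26 counts in Pax5-/- and 76 in WT. Timp3, by contrast, had 26 and 101 counts in Pax5-/- and 2 in WT, and Pdgfrb had 15 and 18 counts in Pax5-/- and 4 in WT.

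The 14 myeloid markers summed to 33.6 and 50.7 CPM in Pax5-/- and 85.3 CPM in WT, with Cebpe at 0 in all 3 libraries. S100a9 had 0 and 0 counts in Pax5-/- and 232 in WT, Ngp 0 and 0 counts in Pax5-/- and 115 in WT, and S100a8 0 and 0 counts in Pax5-/- and 30 in WT. Lyz2 was called higher, at 92 and 128 counts in Pax5-/- and 28 in WT, and Itgam, at 65 and 128 counts in Pax5-/- and 72 in WT, was not called. Of 14 erythroid, megakaryocyte and mast cell markers, 7 were at 0 throughout, and the sums were 11.4 and 13.8 CPM in Pax5-/- and 1.87 CPM in WT, with Cpa3 at 51 and 70 counts in Pax5-/- and 0 in WT. The 11 stem cell markers summed to 326 and 33.9 CPM in Pax5-/- and 27.5 CPM in WT. Ly6a alone had 2073 and 171 counts in Pax5-/- and 144 in WT, while Procr, Mecom, Tek and Gata2 were at 0 throughout. The 13 T and NK cell markers summed to 46.1 and 59.9 CPM in Pax5-/- and 10.8 CPM in WT, with Cd3e at 0 and 1 counts in Pax5-/- and 0 in WT. All 3 tested genes of that list were called higher. Nkg7 had 115 and 209 counts in Pax5-/- and 5 in WT, Klrd1 75 and 64 counts in Pax5-/- and 7 in WT, and Tcf7 103 and 131 counts in Pax5-/- and 35 in WT. The 9 markers of later B cells, among them Igkc, summed to 76.9 and 56.4 CPM in Pax5-/- and 1379 CPM in WT. The part of other cell types in the results for the imprinted genes was not tested.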

How the data were processed

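Total RNA was sequenced from 2 Pax5-/- and 1 wild-type pro-B cell sample, grouped by their titles. The deposited values are whole-number counts per gene, which the authors obtained by featureCounts against mm10, per the submitters' processing notes. No label or header gives its version, the aligner or whether strand was used. Gene length in bases stands beside each count, per the file headers. Symbols came from RefSeq genes of GRCm38.p6 (mm10) by Entrez number, and 25275 of 27179 matched (93.0%); unmatched numbers held at most 0.982% of a library's counts and stayed in the tests. The labels do not say that the samples came from separate animals, so p-values measure the spread between these samples.

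The deposited counts went into edgeR 4.0.16 under R 4.3.3: filterByExpr (minimum count 10), TMM factors of 1.00 and 1.02 in Pax5-/- and 0.983 in the wild type, and glmQLFit and glmQLFTest for Pax5-/- over wild type, with 1 residual and 3.15 prior degrees of freedom and a common biological coefficient of variation of 0.203. A fold against a group with 0 counts is a bound at 3 counts over that group, and with 1 to 3 counts the pooled ratio has an exact Clopper-Pearson 95% interval; reads without molecular identifiers are not independent, so both cover counting error only. The test was tried on simulated counts, where it recovered 84.8% of genes changed 4-fold and 100% of those changed 16-fold among 11500 genes. Every simulated gene had the same spread, close to the common one fitted here. Recovery of genes with a wider spread between samples, such as H19 and Grb10, was therefore not tested. The members, the lists (neighbours, imprint machinery, IGF axis, pro-B and other cell markers) and the rule for named genes were chosen with earlier results of these data known. That rule took all members and, per list, up to 4 called genes with a mean of at least 1 CPM by size of the fold change. Alternatives were RLE scaling, library size alone, other filters, DESeq2 1.42.0, limma-voom (limma 3.58.1), robust estimation, an assumed coefficient of variation, another prior count (0.5 against 2) and each Pax5-/- sample alone.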

Additional observations from a re-analysis of the deposited data

How the results depend on the processing

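With a biological coefficient of variation of 0.4 assumed for every gene, calls over all genes came to 1206 (2130 as reported), those among other imprinted genes and cluster neighbours to 4 (10), imprint machinery to 0 (3; 2 at an unadjusted p under 0.05, and 4 by DESeq2) and the IGF axis to 3 (8). Imprinted members called higher numbered 5 as reported, 2 with limma-voom and 3 with robust estimation. Members called lower numbered 1 as reported, 3 each with RLE scaling, no filter on low counts and robust estimation, 2 each with limma-voom and the assumed coefficient of variation, and 0 with library size alone and with a minimum count of 30 (edgeR; 4 and 2 at an unadjusted p under 0.05, and 1 by DESeq2). With a minimum count of 30, Sgce and Peg10 were no longer tested; the cause of the other shifts was not tested. For no member or named gene that was called did an alternative reverse the direction. Leaving out either Pax5-/- sample leaves no residual degree of freedom and so no count of calls; as differences of log2 CPM, Igf2 was at 9.92 without sample 1 and 9.19 without sample 2, and H19 at 8.17 and 7.03. No paired analysis was possible because the groups share only replicate number 1. Depth limits the members at 0: up to 3 counts a library are allowed.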
